A study of Bos taurus with 13 samples.

Results

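The transcriptome of bovine mesenchymal stem cells was measured after 6 h at 40.5 °C and compared with that of cells kept for the same 6 h at 37 °C. Such cells are plastic-adherent stromal cells that can form bone, fat and cartilage. They were grown as primary cultures of the umbilical cord, used at early passages, and moved to the higher temperature a day after seeding. The comparison used 6 of the 13 libraries of the series, chosen by their titles: replicates 1 to 3 of the heated group and replicates 1 to 3 of its control. The other libraries came from cells held for 3 days at 37 °C (n = 2), for 3 days at 40.5 °C (n = 3), or for 6 h at 40.5 °C followed by 66 h at 37 °C (recovery, n = 2). The 66 h are those of the sample titles, while the text of the series gives 3 days of recovery. All groups were grown in the same low-glucose medium with serum. The labels name no animal, donor or day for a replicate. In the main 6 h test the libraries are paired by replicate number. Its p-values therefore measure how far the change varied between these pairs, with the spread partly shared across genes. Those of fits without pairing measure the spread between these cultures. The 3 replicates may share a source.

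Mammalian cells meet a rise in temperature with the heat shock response. Heat shock factor 1 trimerises when unfolded proteins draw chaperones away from it, binds heat shock elements in promoters, and drives transcription of chaperones of the HSP70, HSP40, HSP90, HSP110 and small heat shock protein families. Transcription of many other genes is reduced at the same time. This is background: the deposited table gives Ensembl identifiers and does not pair them with gene names, and none of them matched the reference table used here. The results below are therefore given by identifier, expression level and size of change, and the stromal identity of the cultures was not checked against marker genes.

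The values are read counts per gene divided by a size factor per library, called normalised read counts below. The 6 libraries held from 18912044 to 39117065 reads. A gene was tested when its normalised read count was at least 10 in at least 2 of the 6 libraries, which kept 13253 of 16595 genes. Log2 fold changes compare heat with control after adding 1 to each value, which understates changes of scarce transcripts, and the test was limma with the replicate number as a block. A gene passed at an adjusted p of 0.05. In a principal component analysis of the tested genes, the first component (46.4% of the variance) set both replicate 3 libraries, at 57.2 in the control and 15.5 under heat, apart from the other 4, which lay between -34.6 and -1.89. Both this and the second component (41.3%) separated the temperatures within every pair, and the second also set replicate 3 apart within each group, so each component mixed replicate and temperature. The labels do not say what sets replicate 3 apart, and results are given without it where that moved them.

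Heat for 6 h changed a large part of the tested genes, mostly by small amounts. Of 13253 tested genes, 6447 (48.6%) passed, 3028 (22.8%) with a higher and 3419 (25.8%) with a lower level in the heated cells. In absolute terms their median change was 0.45 on the log2 scale, a 1.37-fold change, and 3625 of them (56.2%) changed by less than 0.5. The middle 50 percent of the genes that passed changed by between 0.30 and 0.71, and 5 percent changed by more than 1.37. The excess of lower genes depended on the scaling, since 47% of the genes that passed were higher with the deposited scaling, 49.3% with upper quartile scaling and 51% with quantile normalization.

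The count depended on the replicate block and on the libraries in the fit. Without the replicate block 3225 genes passed, all of them among the 6447. The 3222 genes that passed only with the block had a median absolute change of 0.33, against 0.58 for those that passed in both fits. With the block the residual SD had a median of 0.10 (log2), and without it 0.17. Leaving out replicate 1, 2 or 3 in both groups gave 4322, 4562 and 8148 genes, and the number of higher genes was 1937 without replicate 1.

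Larger changes were a small part of the response. By at least 1 on the log2 scale, 341 genes were higher (2.57%) and 430 lower (3.24%). All 771 moved in the same direction in each pair, as 69.7% of all tested genes did, and 387 of them (50.2%) by at least 1 in every pair, 176 higher and 211 lower. Without the block 606 of the 771 passed. By at least 1.5, 122 genes were higher and 121 lower, and 44 were higher (0.332%) and 31 lower (0.234%) by at least 2. These last counts depended on scarce transcripts. They were 20 and 8 when 5 in place of 1 was added to each value, and 21 and 13 among genes with a value of at least 50 in at least 2 libraries. Without genes that had reached the filter in 1 group only, an alternative chosen after seeing the data, they were 22 and 15. By at least 3, 8 genes were higher (0.0604%) and 0 lower in limma, also at an unadjusted p of 0.05. The 8 became 4 with 5 added and 4 without genes that had reached the filter through heat only. Count tests on the recovered reads gave 10 higher and 2 lower genes past 3 in edgeR and 12 higher and 3 lower in DESeq2. The largest fall that passed was -2.75 and the largest rise 4.48.

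**Figure D1:**
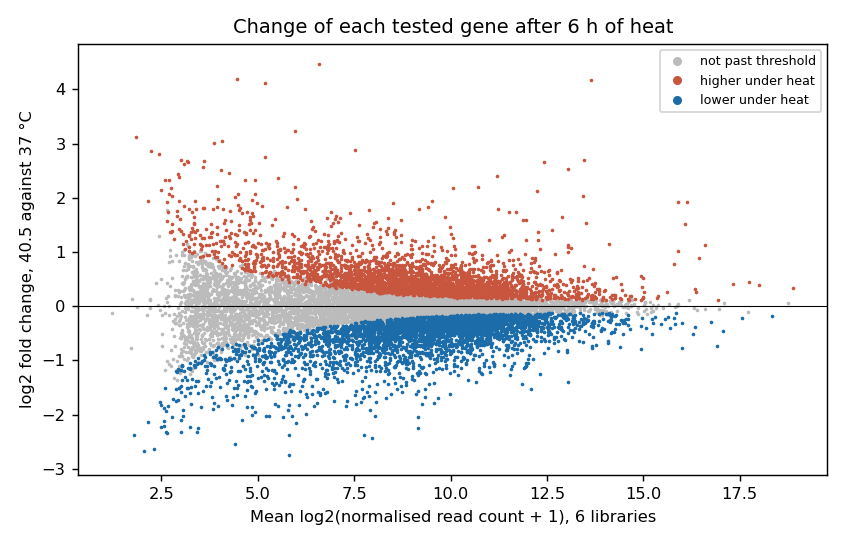
Each point is a tested gene, with the mean log2(normalised read count + 1) of the 6 libraries on the x axis and the log2 fold change of 40.5 against 37 °C on the y axis. Red and blue points passed an adjusted p of 0.05 in limma; rises reached 4.48 and falls -2.75, and a few abundant genes on the right rose by 2 or more with no fall of that size opposite them.

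The 2 largest rises among genes with a mean of at least 100 in the higher group were in a scarce and in an abundant transcript. ENSBTAG00000025441 had normalised read counts of 3088, 3270 and 2776 in control replicates 1 to 3 and of 55370, 51806 and 57121 under heat. All heated libraries were far above all controls, and the ratio within pairs was 17.9, 15.8 and 20.6. The rise was 4.17 on the log2 scale, with an SE of 0.067 and an adjusted p in limma of 2.91e-08. Ranked by mean level, this gene moved from 1390th to 36th of all genes, and its share of all reads went from 0.0129% to 0.23%. With the block left out its adjusted p in limma was 9.04e-06.

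ENSBTAG00000039035 had 36.1, 40.9 and 4.59 in the control replicates and 522, 428 and 427 under heat. The groups did not overlap, and control replicate 3 stood below the other controls, with 4 recovered reads against 60 and 50. The differences within pairs were 3.82, 3.36 and 6.26 on the log2 scale, and the fitted rise was 4.48, with an SE of 0.46 and an adjusted p in limma of 0.000156. Without replicate 3 it was 3.59 (SE 0.13, taken wholly from the limma trend and not from the spread of this gene). No other gene that rose had a larger fitted change.

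The 2 largest falls under the same rule were smaller than these rises. ENSBTAG00000016041 had 155, 129 and 152 in the control replicates and 21.5, 15.1 and 27.4 under heat. The groups did not overlap, and the control mean was 6.83 times the heated mean. The fitted change was -2.75, with an SE of 0.18 and an adjusted p in limma of 2.13e-05. It rested on 133 to 258 recovered reads per control library and 12 to 32 per heated library.

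ENSBTAG00000010120 had 674, 608 and 468 in the control replicates and 151, 123 and 65 under heat. Replicate 3 was the lowest library in each group, and the difference within its pair, -2.83, was larger than the -2.15 and -2.29 of the other pairs. The fitted change was -2.42, with an SE of 0.14 and an adjusted p in limma of 1.2e-05, and the control mean was 5.16 times the heated mean. All 4 genes passed in each of the 22 alternative analyses run for them. They had been named for large changes that passed in the same libraries, which favours this result.

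**Figure D2:**
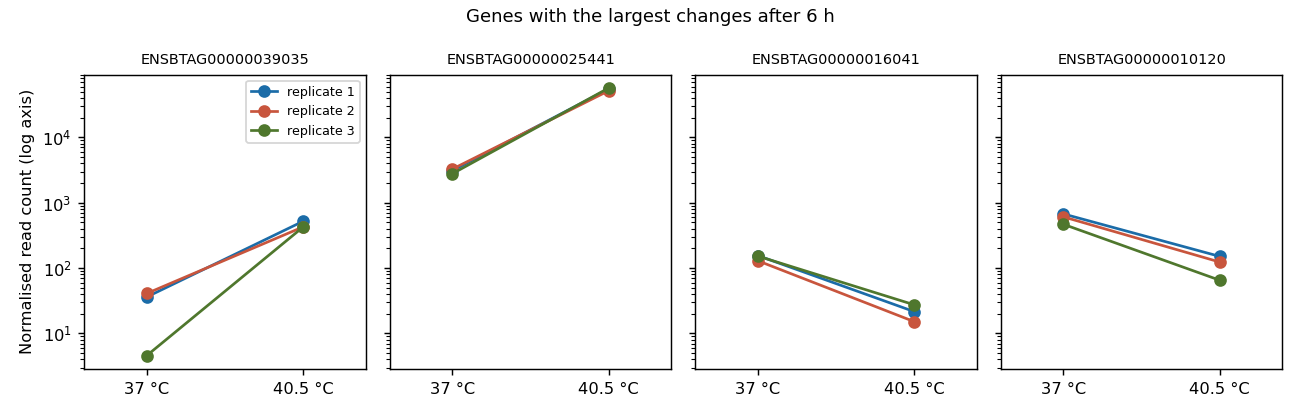
Normalised read counts (log axis, shared by the panels) in the 3 control and 3 heated libraries. The genes are those with the 2 largest rises and the 2 largest falls among genes with a mean of at least 100 in the higher group. A line joins the libraries of 1 replicate. In every panel all lines run in the same direction, and ENSBTAG00000039035 shows the low control library of replicate 3 (4.59).

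The share of genes that passed differed with expression level. The tested genes were divided into 5 classes of 2650 or 2651 genes by their mean log2 level over the 6 libraries. In the lowest class, with a median normalised read count of 25.4, 783 genes passed (29.5%), and the share was 48.6%, 53.6%, 54.8% and 56.7% in the next classes up to the highest, with a median of 3120. The precision changed in the same order: the median SE was 0.26 in the lowest and 0.053 in the highest class, and the smallest change that passed was 0.41 and 0.11. Depth therefore limits what could be seen in scarce transcripts, and the lower share there cannot be told apart from lower precision. Where genes passed, the median change was 1.02 in the lowest and 0.32 in the highest class. A larger change was needed to pass in the lowest class, which itself favours this order.

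The strong changes were unevenly spread over the expression range. Of the 44 genes higher by at least 2 on the log2 scale, 33 were in the lowest class and 8 in the highest, with 2, 0 and 1 in the classes between. Of the 33, 22 had reached the filter only through the heated libraries, a condition that itself asks for a difference, and 11 remained without them. The 31 genes lower by at least 2 were in the lowest class (26) and the classes above it (3, 2, 0 and 0), and 16 of the 26 had reached the filter only through the control libraries. In the highest class 0 genes fell by that much in limma, also at an unadjusted p of 0.05, and edgeR and DESeq2 gave 0 as well, while each of the 3 tools gave 8 rises. The largest fall in the highest class was -1.54.

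**Figure D3:**
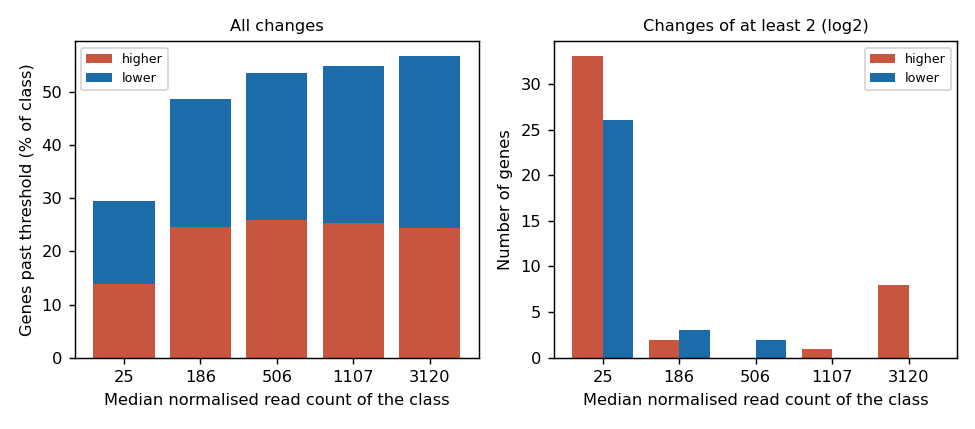
Left, percent of the genes of each expression class that passed an adjusted p of 0.05 in limma, higher (red) and lower (blue) under heat; right, number of genes with a change of 2 or more (log2). The x axis gives the median normalised read count of the class; the highest class holds 8 strong rises and 0 strong falls.

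The 8 abundant, strongly induced genes were looked at as a group after their values had been seen, and ENSBTAG00000025441 is one of them. Their mean normalised read counts ran from 786 to 5504 in the control and from 3772 to 54766 under heat. The log2 fold changes ran from 2.04 to 4.17 with a median of 2.47, and the 24 differences within pairs from 1.62 to 4.36. Heated and control libraries did not overlap for any of the 8, where 43.5% of all tested genes had groups that did not overlap, 21.1% with the heated group higher and 22.4% lower. All 8 also passed without the block, and their highest limma adjusted p with it was 2.68e-05. The 8 had been chosen for a large rise that passed in these same libraries. That choice favours groups that do not overlap and low p-values, so these values are a description. Together they took 0.102%, 0.101% and 0.0918% of all reads in the control replicates and 0.715%, 0.695% and 0.621% under heat. Nearly all reads of the 44 genes higher by at least 2 came from these 8, since the 44 together took 0.697% ± 0.050 (SD, n = 3) under heat and 0.102% ± 0.0058 (SD, n = 3) in the control.

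The change in the composition of the messenger RNA was broad. The 3028 genes that rose held 24% ± 0.23 (SD, n = 3) of all reads in the control and 32.8% ± 0.44 (SD, n = 3) under heat, and the 3419 genes that fell held 35% ± 0.38 (SD, n = 3) and 26.6% ± 0.15 (SD, n = 3). These genes were chosen on the same libraries, so the shares describe the size of the shift and are not tested. The 341 genes higher by at least 1 went from 1.47% ± 0.016 to 4.33% ± 0.16 of the reads (SD, n = 3). The 430 genes lower by at least 1 went from 1.09% ± 0.042 to 0.454% ± 0.018 (SD, n = 3). The largest folds thus involved a small share of the RNA, and most of the shift lay in genes changed by less than 1.

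Abundant transcripts took part in it. Of the 100 genes with the highest mean over the 6 libraries, 60 passed, 31 higher and 29 lower. The share was close to that of other abundant genes, 58.4% of the first 1000 and 56.7% of the highest expression class. Of all tested genes 48.6% passed. Among these 100, 6 rose by at least 1 on the log2 scale and 0 fell by that much in limma, the largest fall being -0.78. The most abundant gene had 411754, 446514 and 441429 in the control replicates and 535251, 553539 and 555048 under heat. All heated libraries were above all controls, a rise of 0.34 on the log2 scale with an SE of 0.043 and an adjusted p in limma of 0.000431. Its share of the reads was 1.89% ± 0.0095 (SD, n = 3) in the control and 2.3% ± 0.046 (SD, n = 3) under heat (two-sided exact permutation test, p = 0.1, the smallest that 3 against 3 libraries allow).

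Each pair was then compared with the genes that passed in the other pairs, which hold none of its libraries. Of the 4322 genes that passed without replicate 1, 4292 (99.3%) changed in the same direction in replicate 1. For replicate 2 it was 4510 of 4562 (98.9%), and for replicate 3 it was 7258 of 8148 (89.1%). Over all tested genes, whether or not they passed, these shares were 84%, 82.9% and 78.1%. The median change in the left-out pair was 0.52, 0.50 and 0.36 on the log2 scale, against 0.56, 0.54 and 0.40 in the pairs that chose the genes. The lists are not alike, since without replicate 3 limma took the spread wholly from its trend. That list was longer and held smaller changes, so its 89.1% cannot be set directly against the shares for replicates 1 and 2. Replicates 1 and 2 were also close to each other, with a median absolute log2 difference of 0.089 in the control and 0.092 under heat. Between replicates 1 and 3 it was 0.23 and 0.22. The labels do not say whether replicates 1 and 2 are independent, so their shares cannot be read as checks in a separate source. Of the 837 genes with a change of 1 or more in replicates 1 and 2, 795 had the same direction in replicate 3.

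**Figure D4:**
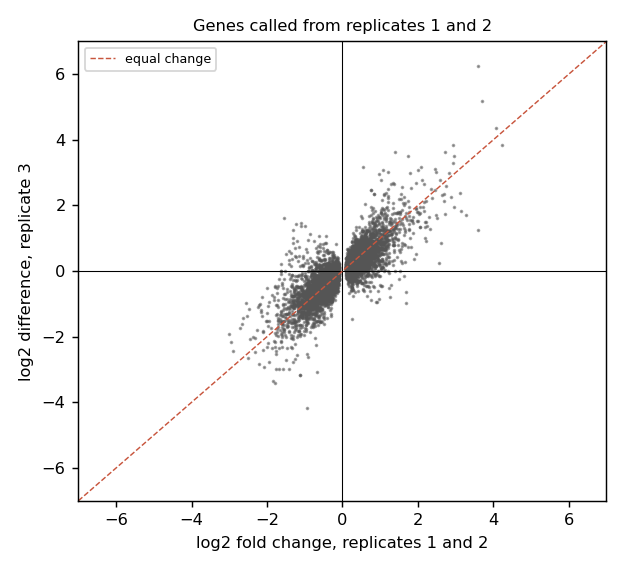
Each point is 1 of the 8148 genes that passed in replicates 1 and 2 alone, with the log2 fold change in those replicates on the x axis and the log2 difference within replicate 3 on the y axis; the dashed line marks equal change. Points in the upper left and lower right, 890 genes, changed in the opposite direction in replicate 3. The fit that chose the 8148 genes took the spread wholly from the limma trend.

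The genes that changed in opposite directions in replicate 3 were 436 higher and 454 lower in replicates 1 and 2. Their median change was 0.27 in replicates 1 and 2 and 0.11 the other way in replicate 3. Their median normalised read count, 674, was close to the 675 of all genes that passed in replicates 1 and 2. Of the 890, 11 changed by at least 1 the other way, with a median normalised read count of 15.7.

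Few genes were switched on or off at this depth. Among all 16595 genes, 32 had a read in every heated library and none in any control, and 53 had a read in every control and none in any heated library. A count of 0 was matched by few reads on the other side: the median sum over 3 libraries was 6 reads in each set, and the highest 17 and 27. Genes that reached a normalised read count of 10 in at least 2 heated libraries but in no control numbered 128. Their median level was 12.9 under heat and 5.7 in the control, and 117 genes met the reverse condition, with 12.1 in the control and 5.18 under heat. These could enter the test only through the group in which they were high, so no share that passed is given for them.

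To see where 6 h of heat differed from longer heat, its effect was tested against that of 3 days at 40.5 °C relative to 3 days at 37 °C, as an interaction in a limma fit of all 13 libraries without a block. The effects differed in 1897 of 13684 genes (13.9%), with a positive difference (6 h minus 3 days) in 870 and a negative one in 1027. Without replicate 1 of the 3-day control the count was 768, without replicate 1 of the 6 h heat group 1241, with the replicate number as a block 3931, and without replicate 3 of the 3 groups that have one 4508. Of the 6447 genes that passed at 6 h, 1144 (17.7%) differed, and 680 of these had the larger effect at 6 h. In 609 of the 1144 the effects had opposite signs. The 6447 genes had been chosen in the 6 h libraries that also enter this test. That choice favours a difference and a larger effect at 6 h, so these counts are a description.

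Of the 8 abundant, strongly induced genes, 7 differed, each with the larger effect at 6 h, beside the 13.9% of all genes. They had been chosen for a large rise in the same 6 h libraries, which favours this direction, so the count is a description. After 3 days of heat these 8 had log2 fold changes from 0.43 to 1.97 with a median of 1.19, and 7 passed, where 40.4% of 13684 genes passed in that comparison. For ENSBTAG00000025441 the normalised read counts were 2457 and 3250 in the 3-day control and 9776, 9594 and 14600 after 3 days of heat. The heated libraries were all above the controls, but at less than the level seen after 6 h. The difference between the effects was 2.2 (SE 0.23, limma adjusted p 0.000283), and the recovery libraries had 1979 and 2146.

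ENSBTAG00000016041 also had the larger effect at 6 h. It had been named for a large fall in the same 6 h libraries, which favours this direction. It had 146 and 163 in the 3-day control and 70.9, 55.5 and 77.7 after 3 days of heat, a difference between the effects of -1.57 (SE 0.31, limma adjusted p 0.00893). For ENSBTAG00000010120 the values were 482 and 532 in the 3-day control and 101, 118 and 73.8 after 3 days of heat. Its effects were -2.42 and -2.39 in this fit, and the difference of -0.034 (SE 0.41, limma adjusted p 0.968) changed sign between alternatives. For ENSBTAG00000039035 the difference was 2.53 (SE 0.92, limma adjusted p 0.0872) and did not pass, while without control replicate 3 of the 6 h group it was 1.59 (SE 0.40, limma adjusted p 0.0215).

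The genes that passed at 6 h were finally followed by the size of their 6 h change. The comparisons after 3 days share no library with that at 6 h, but they share the 3-day control with each other. Genes higher by 0.25 to 0.5 at 6 h had a median of 0.36 at 6 h and 0.31 after 3 days of heat. For genes higher by 1 to 2 the medians were 1.27 and 0.67, and for the 44 genes higher by at least 2 they were 2.48 and 1.41. Genes lower by at least 2 had a median fall of 2.23 at 6 h and of 1.06 after 3 days. In each direction a smaller part of the 6 h median was seen after 3 days in the classes of 1 or more than in those under 0.5. The classes were cut by the 6 h size, which itself favours large 6 h values.

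After 66 h at 37 °C the medians in the direction of the 6 h change were between -0.096 and 0.062 in all 10 size classes. Over all tested genes the median in the 6 h direction was 0.22 after 3 days of heat and 0.025 after recovery, and 69.9% and 55.1% of the genes had the 6 h sign. Of the 44 genes higher by at least 2, 90.9% had the same sign after 3 days and 45.5% after recovery. Of the 31 lower by at least 2 these shares were 80.6% and 41.9%. The 8 abundant, strongly induced genes had recovery log2 fold changes from -0.75 to 0.22, 6 of them below 0. Of these 8, 0 passed in limma in the recovery comparison, which had n = 2 in each group.

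**Figure D5:**
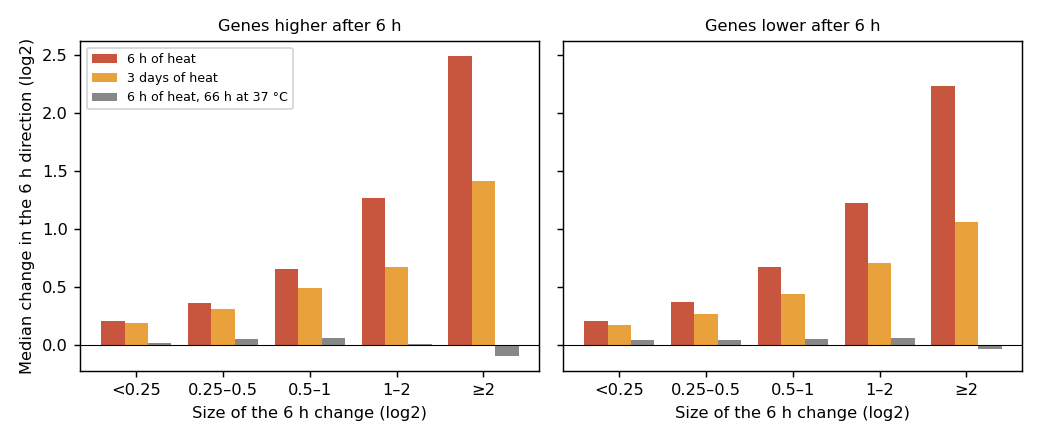
Median log2 change, signed so that the 6 h direction is positive, for genes that passed at 6 h, by the size of their 6 h change (x axis), after 6 h of heat (red), after 3 days of heat (orange), and after 6 h of heat followed by 66 h at 37 °C (grey). Left, genes higher at 6 h; right, genes lower; the grey bars stay between -0.096 and 0.062 while the orange bars rise to 1.41 and 1.06.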

How the data were processed

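Polyadenylated RNA was sequenced. The submitters' processing notes name cutadapt, STAR, HTSeq and DESeq and the build ARS-UCD1.2. Annotation and strand setting are not given in the sources used here. What the authors deposited is a signal normalised per library by DESeq, with 1 value per gene and library. Dividing each column by its smallest step gave whole reads, within 0.01, for 100% of values in each library. Values of the 6 libraries (3 heated, 3 control) were filtered, and log2(value + 1) was analysed in limma 3.58.1 under R 4.3.3 (mean-variance trend, replicate number as a block, 2 residual degrees of freedom, Benjamini-Hochberg adjustment, two-sided). The tested genes held 99.97% of the values.

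No label ties a replicate number to a donor or day. The pairing by replicate number was set by the rule of the comparison and was not derived from the values. Deviations from the group mean of same-numbered libraries correlated over genes with r of 0.59, 0.56 and 0.76. Replicates 1 and 2 crossed gave 0.52 and 0.53, so the values set replicate 3 apart but hardly tell the pairs of replicates 1 and 2 from each other. The dispersion ratio between replicates of a group is 1 for sampling noise. Between replicates 1 and 2 it was 2.63 in the control and 2.11 under heat, and 8.79 to 13.3 in comparisons with replicate 3. Each library was counted as a sample, but a ratio above 1 does not show that the replicates are independent.

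The members, the lists and the rule were chosen with earlier results of these data known. The rule named genes with a mean of at least 100 in the higher group that passed and moved the same way in every pair, limited to 2 rises and 2 falls because identifiers had no names. Pathway and marker lists were for that reason not applied. As alternatives, edgeR 4.0.16 and DESeq2 1.42.0 were run on the whole reads. Reads were also simulated for 13253 genes with the replicate differences kept, and 200 genes were changed by 1 or 2 on the log2 scale. From these reads the limma procedure recovered 91.8% of genes changed by 1 and 99% of those changed by 2, with 7 false calls (3.61% of the calls). In the data far more genes passed, mostly with smaller changes, so the simulation does not give the error rate of the calls reported here.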

Additional observations from a re-analysis of the deposited data

Results flagged for a closer look

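The effect of heat differed between 6 h and 3 days, by an interaction test in limma, in 1897 genes, with a positive difference in 870 and a negative difference in 1027. Among the genes named here the difference passed for ENSBTAG00000025441, at 2.2 on the log2 scale (limma adjusted p 0.000283), and for ENSBTAG00000016041, at -1.57 (limma adjusted p 0.00893). Over the 21 alternatives these differences lay between 1.99 and 2.4 and between -1.76 and -1.35, and they passed in each. Both genes had been named for large changes in the 6 h libraries. The test and its alternatives reuse these libraries, which favours a larger effect at 6 h. The 3-day control had 2 libraries. The durations were harvested at different times, so length of heat and time in culture cannot be told apart except through each duration's own control.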

How the results depend on the processing

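Direction and call at 6 h held for all 4 named genes in 22 alternatives (other pseudocounts, filters, scalings, variance models, tools, depths, thresholds and left-out libraries). The alternatives reuse the libraries in which these genes were chosen for large changes, so this does not speak for genes with smaller changes. The count of genes at 6 h was within 1.5 times the reported one in 11 of 13 alternatives that kept all libraries. edgeR gave 6556 genes and DESeq2 4938. The replicate block was the main choice: without the block 3225 genes passed, 1536 higher and 1689 lower. At an adjusted p of 0.01, 4219 passed, 1925 of them higher, because the threshold is stricter. Leaving out a replicate or a single library, the latter without the block, gave 1423 to 8148 genes, 603 to 3923 higher and 773 to 4225 lower. With replicates 1 and 2 only, 1 residual degree of freedom was left and limma took the spread wholly from its trend, so that count assumes a shared spread.

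For the difference between 6 h and 3 days, an adjusted p of 0.01 gave 564 genes, 256 positive and 308 negative. With the replicate block over all groups it gave 3931, 1966 positive and 1965 negative. Leaving out single libraries gave 768 to 2388 genes, 355 to 1182 positive and 413 to 1206 negative, and leaving out replicate 3 of all 3 groups gave 4508, 2330 positive and 2178 negative. The cause was not tested. For ENSBTAG00000010120 the difference, not past the threshold in any alternative, changed sign to 0.0038 with upper quartile scaling, 0.092 with quantile normalization and 0.022 in edgeR, and lay between -0.28 and 0.32 when libraries were left out. For ENSBTAG00000039035 it passed in 3 of 21 alternatives. In the lowest expression class no change under 0.41 on the log2 scale passed. With a median SE of 0.26 there, many changes above 0.41 could be missed as well.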
